A study of Homo sapiens with 24 samples.

Results

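The insulin-like growth factor (IGF) system was followed through RAS-induced senescence (RIS) by the expression of its 2 ligand genes, *IGF1* and *IGF2*, its 2 receptor genes, *IGF1R* and *IGF2R*, and the 6 binding protein genes *IGFBP2* to *IGFBP7*. These 10 genes were picked by Entrez identifier from the count tables, which hold 25702 identifiers, by a rule that uses gene identity alone, although the set was proposed with earlier results of these data known. All 10 had a row in the tables, and 8 of them were among the 13356 genes that passed the filter on low counts.

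The libraries came from IMR90 cells, human diploid lung fibroblasts of 1 cell strain, at passage 23 to 28. All 24 libraries carry retroviral ER:HRAS(G12V), oncogenic *HRAS* fused to an oestrogen receptor domain that 4-hydroxytamoxifen (4OHT) switches on, so the growing controls hold the oncogene in its silent form. Cells of the growing group carry the empty MSCV vector and received no agent, and those of the shHMGA1 group carry an MSCV miR30 hairpin against *HMGA1*, a chromatin protein of senescence-associated heterochromatin foci, also without agent. The RIS group carries the empty vector and had 6 days of 4OHT, and the RIS+shHMGA1 group carries the hairpin and had the same 6 days of 4OHT. Each group has 6 libraries, labelled as biological replicates; whether each was a separate infection is not given in the labels. Since 4OHT was given only to the RIS groups, active RAS and the drug cannot be told apart, and 1 hairpin construct stands for the loss of *HMGA1*.

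IGF1 and IGF2 are small secreted hormones that drive growth and survival through IGF1R, a receptor tyrosine kinase that signals through IRS adaptors to the PI3K and AKT kinases. IGF2R, the cation-independent mannose 6-phosphate receptor, does not signal in this way and removes IGF2 from the cell surface for degradation. The IGFBP proteins hold the ligands outside the cell, lengthen their life and keep them from, or bring them to, the receptor, and proteases such as PAPPA free the ligand again. Lung fibroblasts secrete several IGFBPs, and some of them, IGFBP3, IGFBP5 and IGFBP7 among others, are known from work on senescent cells and their secretome.

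**Figure D1:**
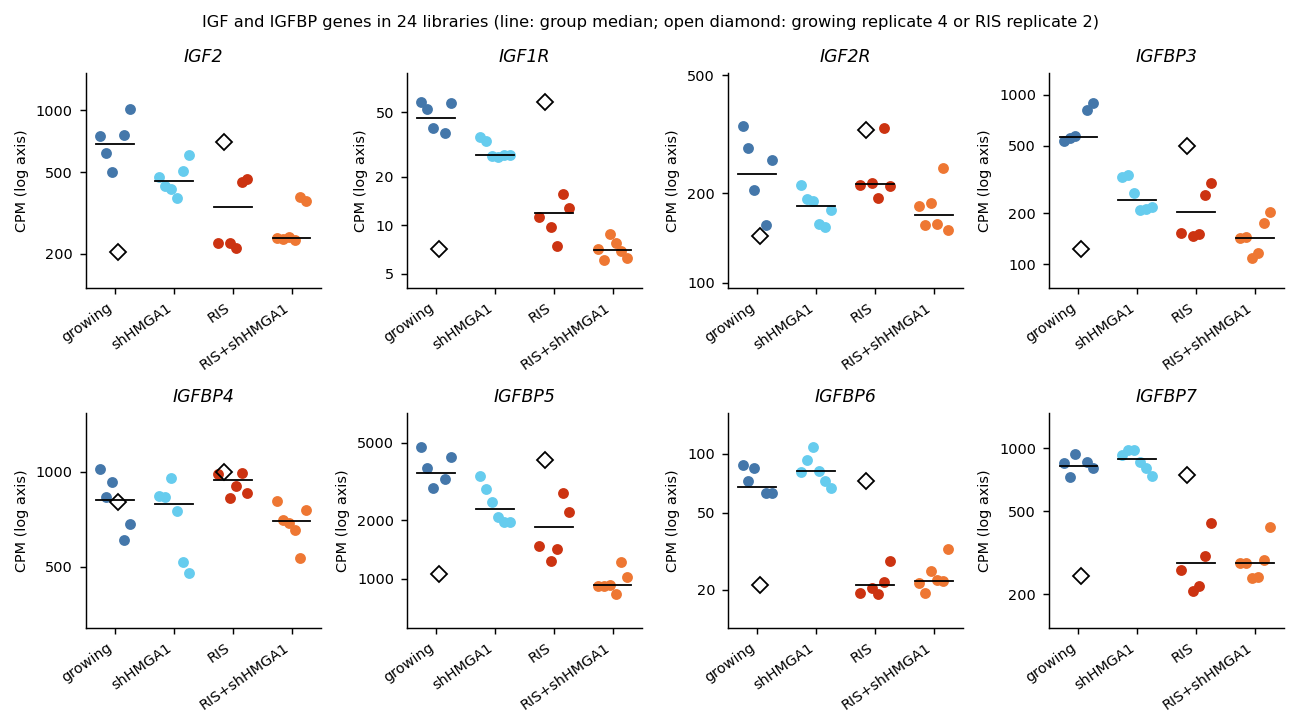
Counts per 1000000 (CPM, log axis) of the 8 IGF and IGFBP genes tested, 1 point per library and a line at the group median. The open diamonds, growing replicate 4 and RIS replicate 2, lie with libraries of the opposite 4OHT label for *IGF1R*, *IGFBP5*, *IGFBP6* and *IGFBP7*. For *IGF1R*, *IGFBP3* and *IGFBP5* growing replicate 4 lies below every RIS library, within the RIS+shHMGA1 range. For *IGF2* it lies at 204 CPM, below every RIS and RIS+shHMGA1 library, and RIS replicate 2, at 699 CPM, lies within the range of the other growing libraries. *IGFBP4* stays between 479 and 1023 CPM throughout.

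Total counts ran from 8698070 to 23103424 per library. *HMGA1* lay between 639 and 861 CPM (counts per 1000000 on TMM-normalised library sizes) in the 12 vector libraries and between 54.4 and 262 CPM in the 12 hairpin libraries, a log2 fold change of −2.76 ± 0.31 (SE) in growing and −2.05 ± 0.30 in RIS cells. Among hairpin libraries, replicates 5 and 6 had 58.1 and 54.4 CPM in shHMGA1 and 60 and 75.1 CPM in RIS+shHMGA1 cells. Replicates 1 to 4 had 98.7 to 143 CPM and 197 to 262 CPM. The part of this split in the hairpin comparisons was not tested. All 9 fibroblast markers exceeded 1 CPM in every library, and of the 12 markers of epithelium, endothelium and leukocytes 11 reached at most 1.27 CPM, *CDH1*, *PECAM1* and *PTPRC* among them. The exception was *CD68*, a lysosomal protein on the leukocyte list, at 40.2 to 105 CPM. The 4 leukocyte markers summed to 40.7 to 96.4 CPM in the growing and shHMGA1 libraries and to 55.9 to 106 CPM in the RIS and RIS+shHMGA1 libraries, and their part in the results was not tested. The fibroblast markers summed to 14249 to 40297 CPM in the growing and shHMGA1 libraries and to 4535 to 9132 CPM in the RIS and RIS+shHMGA1 libraries, 2 libraries left aside. These were growing replicate 4, at 5187 CPM, and RIS replicate 2, at 26911 CPM. On the first principal component, 73.9% of the variance, growing replicate 4 lay at 77.3 and the other 5 growing libraries between −84.3 and −57.2. RIS replicate 2 lay at −77.1 and the other 5 RIS libraries between 16.8 and 62.1. The RIS+shHMGA1 libraries lay between 52.5 and 84.1, a range that holds growing replicate 4. Summed over 8 proliferation genes, growing replicate 4 had 116 CPM against 643 to 880 CPM in the rest of its group, and RIS replicate 2 had 698 CPM against 95.5 to 132 CPM. Both libraries therefore went against their label for 4OHT but not for the vector, and nothing in the labels accounts for it. Whether these 2 libraries were exchanged was not tested, and it bears on every value given with all libraries. Both were kept in their labelled groups, and most results that rest on them are also given without them, written as "without the 2 libraries". Given with all libraries only are, among others, the fold changes of *HMGA1* and those of RIS+shHMGA1 against growing cells. The same holds for the range of group means and for the genes most like a member.

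Among the binding protein genes, *IGFBP3*, *IGFBP5* and *IGFBP6* were called lower in RIS against growing cells without the 2 libraries (none of them with all libraries) and *IGFBP4* was called in no comparison, so the 60 bases before their start sites are shown, with those of *IGF1R*, called lower in the same fit. They come from RefSeq (GRCh38.p14), where 8 of the 10 genes had an entry; *IGF2* and *IGFBP7* had none. Both strands of the 30 bases that begin 45 bases before the start were searched for the canonical TATA box, TATAAA, and for its variants with the letters TATATA or with TTTAAA, which can overlap each other, and a match is in capitals.

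IGFBP3 (chr7:45921273-45921332, minus strand): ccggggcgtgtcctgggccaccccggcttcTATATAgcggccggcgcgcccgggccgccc
IGFBP4 (chr17:40443390-40443449, plus strand): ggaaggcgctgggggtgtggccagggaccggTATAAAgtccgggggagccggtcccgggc
IGFBP5 (chr2:216695550-216695609, minus strand): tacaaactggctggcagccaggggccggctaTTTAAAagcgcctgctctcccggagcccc
IGFBP6 (chr12:53097607-53097666, plus strand): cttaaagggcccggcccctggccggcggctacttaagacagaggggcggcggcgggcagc
IGF1R (chr15:98648479-98648538, plus strand): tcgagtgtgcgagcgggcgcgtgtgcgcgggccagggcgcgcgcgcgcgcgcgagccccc

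A match began 30 bases before the start in *IGFBP3* and 29 bases before it in *IGFBP4* and *IGFBP5*, while *IGFBP6* and *IGF1R* had none in the window. Of all 35116 promoters in the table, 3.01% held the first motif, 1.07% the next, 1.67% the last and 5.4% any of them. Of these genes called lower without the 2 libraries, *IGFBP3* and *IGFBP5* thus had a match and *IGFBP6* and *IGF1R* had none.

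Counts were compared with edgeR's quasi-likelihood test over all 24 libraries, and a gene was called where its Benjamini-Hochberg adjusted p was under 0.01 and its log2 fold change beyond 0.58 either way, the limits of the study's methods. In RIS against growing cells, 0 of the 8 genes were called and 0% of all 13356 genes tested. Unadjusted p-values under 0.05 were found for 5 of the 8 and for 4407 of all genes, and DESeq2 called 3 and 829 of them. Without the 2 libraries, 6 of the 8 were called, all lower in RIS: *IGF1R*, *IGF2*, *IGFBP3*, *IGFBP5*, *IGFBP6* and *IGFBP7*. In that fit 39.7% of all genes were called and 20.5% were called lower. The median log2 fold change of the 8 genes was −0.89 with all libraries and −1.37 without the 2 libraries, and the median of all genes was −0.01 in both.

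The same step in hairpin cells, RIS+shHMGA1 against shHMGA1, contains neither of the 2 libraries. Here 4 of the 8 were called, all lower in RIS+shHMGA1: *IGF1R*, *IGFBP5*, *IGFBP6* and *IGFBP7*, beside 39.1% of all genes called and 19.5% called lower. The fold changes were the same to 2 decimals without the 2 libraries, which enter this comparison through the spread shared by all groups and the set of genes tested, 13416 without them. *IGF2* and *IGFBP3* then passed as well, giving 6 called genes, all lower, beside 44.4% of all genes called and 21.9% called lower. The median of the 8 genes was −1.07 on the log2 scale against −0.02 for all genes. RIS+shHMGA1 against growing cells gave 6 called genes, all lower, beside 45.9% of all genes called and 23.9% called lower. With all libraries these were *IGF1R* (−2.56), *IGFBP3* (−1.97), *IGFBP5* (−1.78), *IGFBP6* (−1.46), *IGFBP7* (−1.33) and *IGF2* (−1.19 on the log2 scale). Their adjusted p-values were 0.0022 or less. The count was also 6 without the 2 libraries, beside 56.9% called and 28.5% called lower.

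In shHMGA1 against growing cells 0 of the 8 were called, beside 0.27% of all genes. An unadjusted p under 0.05 was found for 1 of the 8 and for 1759 of all genes. DESeq2 called 0 of the 8 and 99 of all genes. *IGF1R* and *IGFBP3* were called without the 2 libraries, both lower with the hairpin, beside 2.59% of all genes called and 1.39% called lower. In RIS+shHMGA1 against RIS cells 0 of the 8 were called, beside 2.55% of all genes. An unadjusted p under 0.05 was found for 5 of the 8 and for 6647 of all genes. DESeq2 called 2 of the 8 and 1573 of all genes. *IGF1R* and *IGFBP5* were called without the 2 libraries, both lower with the hairpin, beside 12.5% of all genes called and 2.5% called lower. These comparisons share libraries with each other, so their calls are not independent. The interaction of hairpin and RAS, which asks whether the hairpin changes the response to RAS, called 0 of the 8 and 0% of all genes. None of the 8 had an unadjusted p under 0.05 for it, against 1371 of all genes, and DESeq2 called 0 of the 8 and 5 of all genes. It called 0 of the 8 without the 2 libraries and 0.00745% of all genes.

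**Figure D2:**
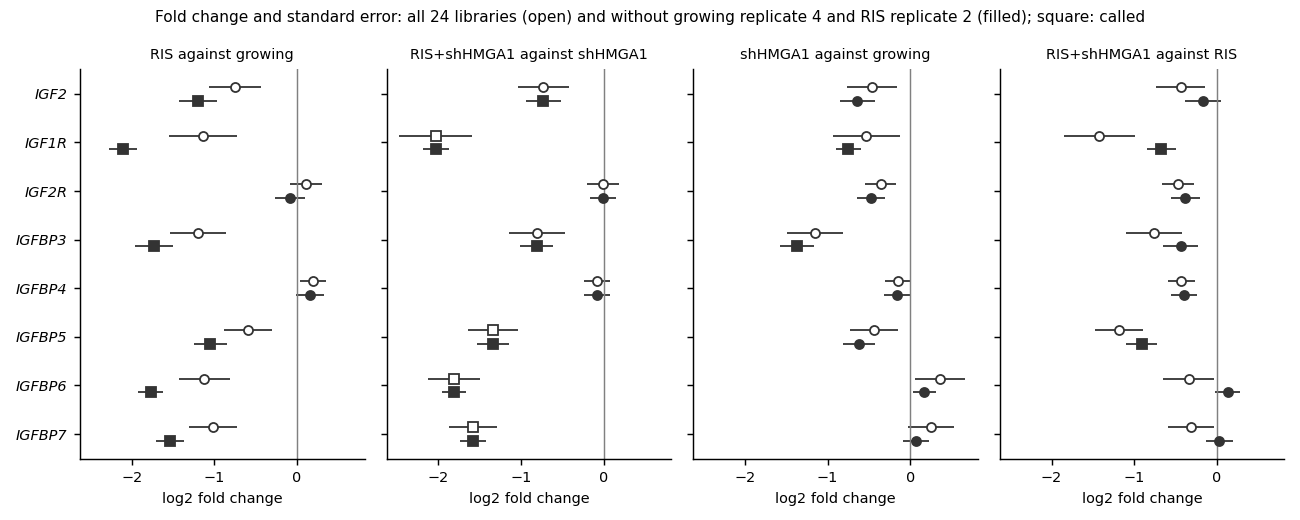
Log2 fold change with its standard error for 8 genes in 4 comparisons, from all 24 libraries (open) and without growing replicate 4 and RIS replicate 2 (filled); squares are called. In RIS against growing cells *IGF1R* moved from −1.14 to −2.11 once the 2 libraries were left out, and *IGF2R* and *IGFBP4* lay at 0.11 and 0.19 with all libraries and at −0.09 and 0.16 without the 2.

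Of the ligands, *IGF1* (Entrez 3479, chr12:102789652-102875522 in GRCh37, the build of the gene positions that follow) had 0 counts in all 24 libraries. The limit that 0 of 276889910 counts allows, taken as 3 counts, is 0.0108 CPM over all libraries, and per library it runs from 0.13 CPM in the deepest to 0.345 CPM in the shallowest. These limits cover counting error only. No difference between groups was detectable for *IGF1* at this depth.

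*IGF2* (Entrez 3481, chr11:2150342-2179621, minus strand), the fetal growth ligand, was by contrast read at 1584 to 18810 counts. Its lowest, median and highest levels were 204, 682 and 1011 CPM in growing cells and 376, 450 and 603 CPM in shHMGA1 cells. RIS cells had 214, 339 and 699 CPM and RIS+shHMGA1 cells 234, 239 and 377 CPM. The lowest growing library was replicate 4 and the highest RIS library replicate 2, and without these growing cells began at 502 CPM and RIS cells ended at 464 CPM, so that the groups no longer overlapped. RIS against growing gave a log2 fold change of −0.75 ± 0.31 (SE, adjusted p = 0.092) with all libraries and −1.20 ± 0.23 (adjusted p = 8.2e-05) without the 2. With the hairpin, 5 of the 6 RIS+shHMGA1 libraries lay below all shHMGA1 libraries and the other, at 377 CPM, just above the lowest of them at 376 CPM. This step was −0.73 ± 0.31 (adjusted p = 0.041), and ± 0.21 (adjusted p = 0.0032) without the 2 libraries. The hairpin gave −0.46 ± 0.30 in growing and −0.44 ± 0.30 in RIS cells, and −0.64 ± 0.21 and −0.17 ± 0.22 without the 2 libraries, none of them called.

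*IGF2* also differed by replicate number. RIS replicates 5 and 6 had 450 and 464 CPM and replicates 1, 3 and 4 had 214 to 227 CPM; RIS+shHMGA1 replicates 5 and 6 had 377 and 361 CPM and the other 4 had 234 to 241 CPM. Replicates 5 and 6 were the highest of the growing libraries as well, at 757 and 1011 CPM, and of the shHMGA1 libraries, at 507 and 603 CPM. On the first principal component the same RIS replicates 5 and 6 lay at 16.8 and 22.2 and replicates 1, 3 and 4 between 56 and 62.1. The labels name no batch for these numbers, and their part in the difference was not tested.

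Reads of *IGF2* were shared with another row of the tables. *INS-IGF2*, a readthrough gene that overlaps *IGF2* over 25854 bases, held 94.8 to 97.8% of the *IGF2* count in every library, so its row follows *IGF2* and is no second measurement. *IGF2-AS* on the opposite strand held 2 to 15 counts per library, or at most 0.374% of the *IGF2* count.

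*IGF1R* (Entrez 3480, chr15:99191768-99507759), the signalling receptor, had the widest range of group means among the 8 genes, 2.28 on the log2 CPM scale. Growing cells had 7.07, 46.3 and 57.9 CPM as lowest, median and highest, shHMGA1 cells 26.4, 27.1 and 35.2 CPM, RIS cells 7.42, 11.9 and 58.2 CPM, and RIS+shHMGA1 cells 6.1, 7.01 and 8.86 CPM. With the 2 libraries left out, growing cells held 37.3 to 57.9 CPM and RIS cells 7.42 to 15.7 CPM. The 4 groups then stood in the order growing, shHMGA1, RIS and RIS+shHMGA1, with no overlap between the first 3 and an overlap of RIS and RIS+shHMGA1, where 4 of the 6 RIS+shHMGA1 libraries lay below all RIS libraries.

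The fall of *IGF1R* in RIS+shHMGA1 against shHMGA1 was 4.08-fold, a log2 fold change of −2.03 ± 0.44 (adjusted p = 0.00077), and 0.16 was the standard error without the 2 libraries. In RIS against growing it was −1.14 ± 0.41 (adjusted p = 0.063) with all libraries and −2.11 ± 0.17 (adjusted p = 1.3e-10) without the 2. *IGF1R* was lower with the hairpin, at −0.75 ± 0.15 on the log2 scale in growing cells (adjusted p = 0.0028) and −0.67 ± 0.17 in RIS cells (adjusted p = 0.005), both without the 2 libraries. With all libraries these values were −0.53 ± 0.41 (adjusted p = 0.63) and −1.42 ± 0.43 (adjusted p = 0.021), neither called. The difference between the steps in hairpin and in vector cells was −0.89, with a nominal 95% interval of −2.05 to 0.26. Without the 2 libraries it was 0.08, with an interval of −0.37 to 0.53.

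*IGF2R* (Entrez 3482, chr6:160390114-160534539), the clearance receptor for *IGF2*, was called in none of the 6 comparisons. It ran from 144 through 232 to 338 CPM in growing cells, 154 through 182 to 214 CPM in shHMGA1 cells, 193 through 215 to 333 CPM in RIS cells and 151 through 169 to 244 CPM in RIS+shHMGA1 cells. All groups overlapped. RIS against growing gave 0.11 on the log2 scale with a 95% interval of −0.27 to 0.48, and −0.09 with an interval of −0.44 to 0.25 without the 2 libraries. RIS+shHMGA1 against RIS gave −0.47 ± 0.19 (adjusted p = 0.055), and −0.38 ± 0.17 (adjusted p = 0.074) without the 2 libraries, and 5 of the 6 RIS+shHMGA1 libraries lay below all RIS libraries. *AIRN*, the antisense transcript of *IGF2R*, has no value here.

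Of the binding proteins, *IGFBP2* (Entrez 3485, chr2:217497551-217529159), a carrier abundant in serum, was at the edge of detection, with 2 to 19 counts or 0.181 to 1.02 CPM per library, and did not pass the filter. Growing cells had a median of 0.49 CPM, shHMGA1 cells of 0.532, RIS cells of 0.638 and RIS+shHMGA1 cells of 0.294 CPM, with overlap between all groups. On the same stretch of chromosome 2 only 7668 bases separate it from *IGFBP5*, the most counted gene of the set.

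*IGFBP3* (Entrez 3486, chr7:45951844-45961473, minus strand), the main carrier of IGFs in serum, was called lower in RIS and in shHMGA1 against growing cells without the 2 libraries and in neither with all libraries. With all libraries it was called lower in RIS+shHMGA1 against growing cells, at −1.97 ± 0.35 on the log2 scale (adjusted p = 0.00021). Growing cells had 123, 560 and 893 CPM, shHMGA1 cells 209, 239 and 337 CPM, RIS cells 146, 204 and 499 CPM, and RIS+shHMGA1 cells 108, 143 and 204 CPM. Once the 2 libraries were left out, growing cells began at 530 CPM and lay above every library of the other 3 groups. In growing cells the hairpin difference of *IGFBP3* was the largest among the 8 genes, −1.37 ± 0.21 on the log2 scale (adjusted p = 0.00025) without the 2 libraries and −1.15 ± 0.34 (adjusted p = 0.13) with them.

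The RAS step in vector cells was −1.73 ± 0.23 (adjusted p = 5.2e-07) without the 2 libraries and −1.20 ± 0.34 (adjusted p = 0.027) with them. In hairpin cells it was −0.81 ± 0.34 (adjusted p = 0.042), and ± 0.20 (adjusted p = 0.0011) without the 2 libraries, and the 6 RIS+shHMGA1 libraries lay below all shHMGA1 libraries. The difference between these steps, 0.92 with a 95% interval of 0.34 to 1.51 without the 2 libraries, had an unadjusted p of 0.0049 in edgeR's fit but an adjusted p of 0.78, and was 0.39 with all libraries. RIS and RIS+shHMGA1 cells differed by −0.44 ± 0.21 (adjusted p = 0.094) without the 2 libraries and −0.76 ± 0.34 (adjusted p = 0.079) with them, and their ranges overlapped.

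*IGFBP4* (Entrez 3487, chr17:38599702-38613977), an inhibitory binding protein that *PAPPA* cleaves, was called in none of the 6 comparisons, with or without the 2 libraries. Its libraries ran from 607 through 815 to 1023 CPM in growing cells, 479 through 791 to 959 CPM in shHMGA1 cells, 829 through 943 to 999.9 CPM in RIS cells and 533 through 696 to 809 CPM in RIS+shHMGA1 cells. Of the 2 libraries that stood apart elsewhere, growing replicate 4 lay within the range of its own group, at 800 CPM, and RIS replicate 2, at 999.9 CPM, just above the next RIS library at 995 CPM. RIS against growing was 0.19 with a 95% interval of −0.12 to 0.51 (−0.17 to 0.50 without the 2 libraries), and RIS+shHMGA1 against shHMGA1 −0.08 with an interval of −0.39 to 0.24, both log2 fold changes. All 6 RIS+shHMGA1 libraries lay below all 6 RIS libraries, with −0.43 ± 0.16 (adjusted p = 0.044), or −0.40 ± 0.16 (adjusted p = 0.053) without the 2 libraries, under the fold limit and not called. In shHMGA1 cells replicates 5 and 6 were the lowest, at 517 and 479 CPM, and growing replicates 5 and 6 were also the lowest of their group, at 607 and 682 CPM.

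*IGFBP5* (Entrez 3488, chr2:217536828-217560272, minus strand), a matrix-bound binding protein, was the most abundant member by count, with 0.0654 to 0.518% of all counts in a library. Growing cells had 1058, 3488 and 4746 CPM, shHMGA1 cells 1949, 2276 and 3374 CPM, RIS cells 1238, 1842 and 4102 CPM, and RIS+shHMGA1 cells 832, 922 and 1219 CPM. RIS+shHMGA1 libraries were the lowest, and all 6 lay below every RIS library and every shHMGA1 library, with or without the 2 libraries.

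The step in hairpin cells was −1.34 ± 0.30 on the log2 scale (adjusted p = 0.00094). In vector cells it was −0.59 ± 0.29 (adjusted p = 0.16) and, without the 2 libraries, −1.05 ± 0.20 (adjusted p = 9.8e-05). RIS+shHMGA1 against RIS gave −1.18 ± 0.29 with an adjusted p of 0.012, above the limit and so not called, and −0.91 ± 0.19 (adjusted p = 0.002) without the 2 libraries. In growing cells the hairpin gave −0.62 ± 0.19 without them and −0.44 ± 0.29 with them, neither called (adjusted p = 0.03 and 0.56). RIS replicates 5 and 6 were again higher, at 2772 and 2209 CPM, than replicates 1, 3 and 4, at 1238 to 1475 CPM.

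*IGFBP6* (Entrez 3489, chr12:53491220-53496129), which prefers *IGF2* over *IGF1*, was called lower in RIS+shHMGA1 against shHMGA1 cells, in RIS+shHMGA1 against growing cells and, without the 2 libraries, in RIS against growing cells. Growing cells had 21.1, 67.9 and 87.9 CPM, shHMGA1 cells 66.7, 81.5 and 108 CPM, RIS cells 19.1, 21.3 and 72.5 CPM, and RIS+shHMGA1 cells 19.2, 22.3 and 32.3 CPM. The extremes at 21.1 and 72.5 CPM were the 2 libraries, and without them growing cells began at 63.1 CPM and RIS cells ended at 28.1 CPM, with a gap between them. Its fall was 3.51-fold in hairpin cells, −1.81 ± 0.31 on the log2 scale (adjusted p = 0.00024). In vector cells it was −1.12 ± 0.31 (adjusted p = 0.024) and, without the 2 libraries, −1.77 ± 0.15 (adjusted p = 6e-10). For the hairpin the 95% intervals were −0.24 to 0.95 in growing and −0.95 to 0.26 in RIS cells, and −0.10 to 0.44 and −0.16 to 0.42 without the 2 libraries.

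*IGFBP7* (Entrez 3490, chr4:57896939-57976551, minus strand), a low-affinity IGF binder found in the matrix and the vessel wall, was called lower in the same comparisons. Growing cells had 244, 826 and 939 CPM, shHMGA1 cells 736, 892 and 980 CPM, RIS cells 207, 284 and 744 CPM, and RIS+shHMGA1 cells 240, 283 and 420 CPM. Again the lowest growing and the highest RIS library were the 2 libraries, and the remaining growing cells held 729 to 939 CPM and the remaining RIS cells 207 to 438 CPM. The step in hairpin cells was −1.58 ± 0.29 (adjusted p = 0.00029), and in vector cells −1.02 ± 0.29 (adjusted p = 0.026) with all libraries and −1.54 ± 0.17 (adjusted p = 5.7e-08) without the 2. The hairpin gave intervals of −0.30 to 0.81 in growing and −0.86 to 0.25 in RIS cells, and of −0.25 to 0.39 and −0.29 to 0.35 without the 2 libraries. *IGFBP7-AS1*, which overlaps the *IGFBP7* locus over 624 bases on the opposite strand, held 10.3 to 17% of its count and fell by 1.53 on the log2 scale in RIS+shHMGA1 against shHMGA1. The strand setting of the counting is not given in the sources used here, so reads of these partners cannot be told apart.

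Per kilobase of canonical transcript, *IGFBP5*, *IGFBP7*, *IGFBP4* and *IGFBP3* led in growing cells. The annotation behind the counts is not given, so an order between genes depends on the length chosen for each. On 94.8 to 97.8% of the *IGF2* count, *INS-IGF2* had a median of 871 CPM per kb with a length of 828 bases. *IGF2* had 134 with 5580 bases, both in growing cells without replicate 4. In growing cells without replicate 4 the medians were 599 CPM per kb for *IGFBP5*, 596 for *IGFBP7*, 376 for *IGFBP4*, 217 for *IGFBP3*, 134 for *IGF2*, 76.5 for *IGFBP6*, 18.3 for *IGF2R*, 4.31 for *IGF1R* and 0.324 for *IGFBP2*. *IGFBP5* and *IGFBP7*, at 470 to 761 and 511 to 658 CPM per kb, did not differ beyond their spread, and *IGF2* (90.1 to 181) overlapped *IGFBP6* (66.6 to 92.8). In RIS+shHMGA1 cells *IGFBP4* led with a median of 316 CPM per kb, before *IGFBP7* with 199, *IGFBP5* with 148, *IGFBP3* with 54.7, *IGF2* with 42.9, *IGFBP6* with 23.6, *IGF2R* with 12, *IGF1R* with 0.573 and *IGFBP2* with 0.208. There *IGFBP7* (168 to 294) overlapped both *IGFBP4* (242 to 367) and *IGFBP5* (133 to 195).

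The sum of the 6 IGFBP genes was 1774 to 2116 CPM per kb in growing cells without replicate 4 and 797 to 1231 CPM per kb in RIS cells without replicate 2. It was 1199 to 1783 CPM per kb in shHMGA1 cells and 667 to 913 CPM per kb in RIS+shHMGA1 cells. Growing replicate 4 had 773 CPM per kb and RIS replicate 2 had 1900 CPM per kb. As a share of this sum, the median of *IGFBP4* was 21.2% for growing, 21.5% for shHMGA1, 47% for RIS and 43.7% for RIS+shHMGA1 libraries, the 2 libraries left out, and the growing and shHMGA1 ranges (15.5 to 25.1%) stayed below the RIS and RIS+shHMGA1 ranges (32.4 to 47.2%). With the 2 libraries, growing cells reached 46.9% and RIS cells began at 23.9%. *IGFBP3* had 9.58 to 17.5% in growing cells without replicate 4 and 5.56 to 7.34% in shHMGA1 cells, and *IGFBP7* 28.1 to 35.4% and 36.5 to 44.5%. These shares are a description, rest on the same transcript lengths and were not tested. In libraries of whole cultures, fewer cells that express a gene and less of its RNA per cell cannot be told apart.

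**Figure D3:**
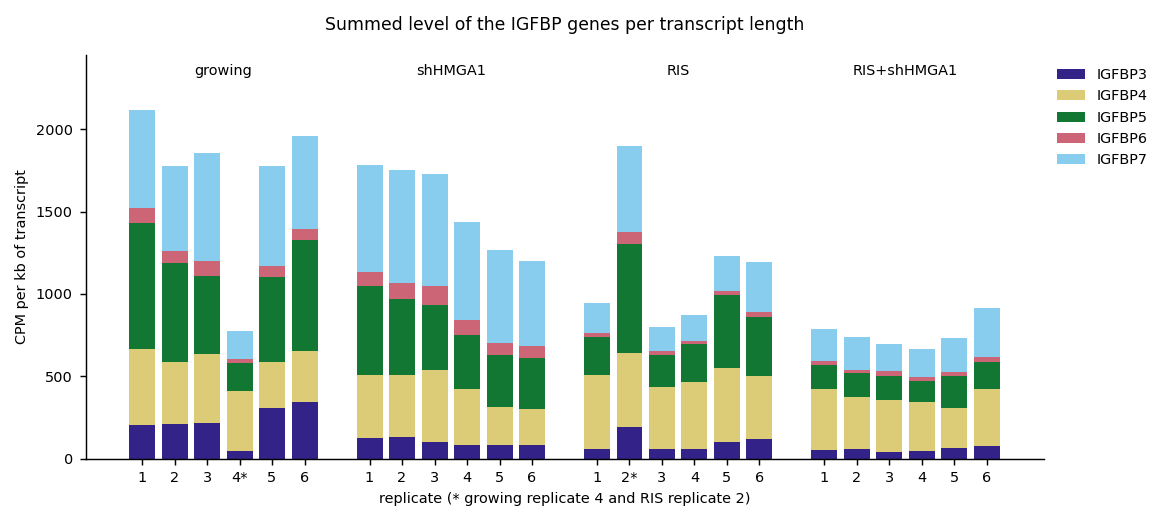
Level of *IGFBP3* to *IGFBP7* in CPM per kilobase of canonical transcript, stacked for each library (IGFBP2, at most 0.718 CPM per kb, is too low to draw). Growing replicate 4, at 773, stands with the RIS and RIS+shHMGA1 libraries, and RIS replicate 2, at 1900, with the growing ones. *IGFBP4* stays between 217 and 464 in every library.

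The other genes of the system, 34 in all and 27 tested, were taken from a list ordered by role. By its identifier, Entrez 5163, *PDK1* on this list is pyruvate dehydrogenase kinase and not the AKT-activating kinase *PDPK1*. It was called in no comparison, with or without the 2 libraries, so it adds nothing to the called genes. In RIS+shHMGA1 against shHMGA1 12 of the 27 were called, 5 higher and 7 lower, beside 39.1% of all genes, so the share of the list was near that of all genes. The count was 6 without replicate 1 and 7 without replicate 3 or 6. The shares of all genes called in those fits are not given, so these counts are not read as a result about the list. *IGFBP1*, the insulin-regulated binding protein, was higher by 2.06 ± 0.58 on the log2 scale (adjusted p = 0.0045), at a low level of 0.582 to 0.878 CPM in shHMGA1 and 1.3 to 5.95 CPM in RIS+shHMGA1 cells, on 1 to 60 counts per library over all groups. It lies 18584 bases from *IGFBP3* on chromosome 7 and moved the other way. *M6PR*, the cation-dependent mannose 6-phosphate receptor, rose by 0.92 ± 0.18 (adjusted p = 0.00045), *STC1*, which inhibits PAPPA proteases, by 0.85 ± 0.22 (adjusted p = 0.0024) and *IGF2BP3*, an RNA-binding protein of *IGF2* messages, by 0.81 ± 0.15 (adjusted p = 0.00034). The remaining higher gene was *PIK3R1*, a regulatory subunit of PI3K, at 0.59 ± 0.16 (adjusted p = 0.0031), which is named here after its value was seen.

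Among the 7 lower genes *SOCS2*, an inhibitor of growth hormone signalling, fell from 63.8 to 100 CPM in shHMGA1 to 12.2 to 19.5 CPM in RIS+shHMGA1 cells, −2.34 ± 0.35 on the log2 scale (adjusted p = 0.00019). *STC2*, the other stanniocalcin and also a *PAPPA* inhibitor, fell by 1.37 ± 0.28 (adjusted p = 0.00058), opposite to *STC1*. *IRS1*, the receptor's adaptor, fell by 0.83 ± 0.21 (adjusted p = 0.002) and *INSR*, the insulin receptor, by 0.79 ± 0.24 (adjusted p = 0.0082). The median log2 fold change of the 27 genes was −0.16, against −0.02 for all genes. Levels of *INSR* were low, 4.5 to 6.22 CPM in shHMGA1 and 2.58 to 3.81 CPM in RIS+shHMGA1 cells, without overlap.

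In RIS against growing cells 0 of the 27 were called with all libraries. An unadjusted p under 0.05 was found for 11 of the 27 and for 4407 of all genes. DESeq2 called 3 of the 27 and 829 of all genes. Without the 2 libraries 11 were called, 4 higher and 7 lower, beside 39.7% of all genes. *IGFBP1* was then higher by 2.66 ± 0.55, *STC1* by 1.53 ± 0.13, *M6PR* by 0.89 ± 0.09 and *PIK3R1* by 0.80 ± 0.15, with adjusted p-values of 0.00021 or less. For *IGFBP1*, RIS replicates 5 and 6 had 4.57 and 4.47 CPM (54 and 49 counts). RIS replicates 1, 3 and 4 had 0.882 to 1.27 CPM (11 to 12 counts), and growing cells without replicate 4 had 0.153 to 0.783 CPM. *SOCS2* fell by 1.95 ± 0.16, *LRP1*, an endocytic receptor that binds *IGFBP3*, by 1.14 ± 0.18, *STC2* by 1.06 ± 0.16 and *IRS1* by 0.92 ± 0.12, with adjusted p-values of 8.9e-06 or less. With all libraries these 8 genes ran from −1.16 for *SOCS2* to 2.03 for *IGFBP1*, none of them called. RIS+shHMGA1 against growing cells gave 13 called genes of the list with all libraries, 4 higher and 9 lower, led by *IGFBP1*, *STC1*, *M6PR* and *IGF2BP3* upward (2.55, 0.92, 0.87 and 0.86) and *SOCS2*, *LRP1*, *STC2* and *IRS1* downward (−1.60, −1.48, −1.34 and −1.05), beside 45.9% of all genes called and 23.9% called lower. The count was 16 without the 2 libraries, 4 higher and 12 lower, beside 56.9% and 28.5% of all genes.

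**Figure D4:**
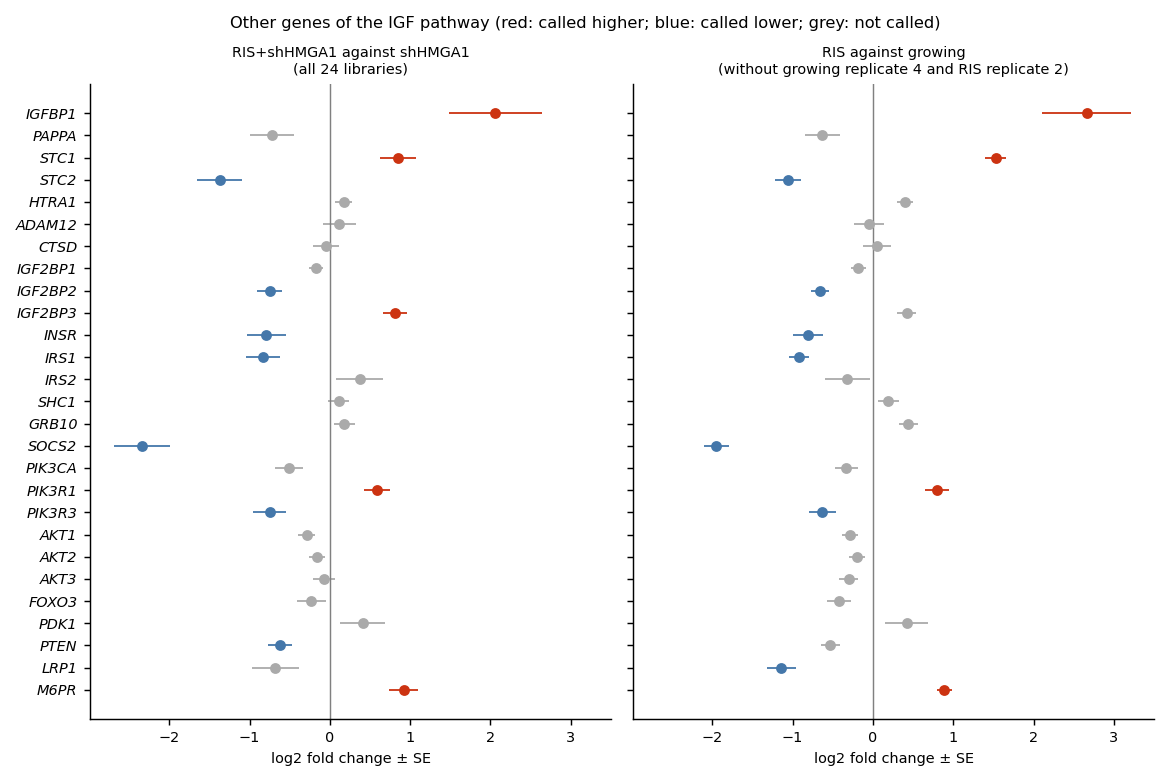
Log2 fold change ± SE of the 27 tested genes of the pathway list, from *IGFBP1* at the top to *M6PR*, in hairpin cells (all libraries) and in vector cells (without growing replicate 4 and RIS replicate 2). *SOCS2* is the lowest in both panels, at −2.34 and −1.95, *IGFBP1* the highest, at 2.06 and 2.66, and *STC1* and *STC2* lie on opposite sides of 0.

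With the hairpin in RIS cells, RIS+shHMGA1 against RIS, 2 of the 27 were called, beside 2.55% of all genes. *IGF2BP3* rose by 0.66 ± 0.15 (adjusted p = 0.0093), from 101 to 157 CPM in RIS to 172 to 241 CPM in RIS+shHMGA1 cells, and *FOXO3*, a transcription factor that AKT holds out of the nucleus, fell by 0.78 ± 0.18 (adjusted p = 0.0099), from 9.82 to 17.1 CPM to 6.87 to 9.23 CPM. Neither gene overlapped between the groups, and both were close to the limit on the adjusted p. The count of 2 became 1 with RLE scaling, 0 without a filter on low counts, and 0 on leaving out any replicate number but 4. The shares of all genes called in those fits are not given, so these counts are not read as a result about the 2 genes. Without the 2 libraries 4 were called, beside 12.5% of all genes: *IGF2BP3* and *FOXO3*, with 0.59 ± 0.12 and −0.70 ± 0.15, *ADAM12*, an IGFBP protease, at −0.81 ± 0.18 and *PIK3R1* at −0.69 ± 0.14. In growing cells the hairpin gave 0 calls of 27 with all libraries (5 with an unadjusted p under 0.05, 2 called by DESeq2), beside 0.27% of all genes (1759 and 99). Leaving out the 2 libraries, *ADAM12*, *FOXO3* and *LRP1* were called, all lower with the hairpin, at −0.97 ± 0.18, −0.89 ± 0.14 and −0.98 ± 0.17 on the log2 scale, beside 2.59% of all genes called. The interaction called 0 of the 27, with or without the 2 libraries. With all libraries 3 of the 27 had an unadjusted p under 0.05, against 1371 of all genes. DESeq2 called 0 of the 27 and 5 of all genes.

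Of the 7 untested genes of the list, *FOXO1* had medians of 0.299 to 0.665 CPM by group, and *IGFALS*, *IGFBPL1*, *PAPPA2*, *H19*, *GRB14* and *INSRR* had medians of at most 0.283 CPM.

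For the 3 members with the widest range of group means, the genes most like them were sought over all 24 libraries by Pearson's r of log2 CPM, among tested genes with a mean log2 CPM of at least 3. For *IGF1R* these were *PTPN21*, *PTPRF* and *CAVIN1*, each with r = 0.99. For *IGFBP6* they were *WFDC1*, *HSPB8* and *H2AX*, each with r = 0.98, and for *IGFBP3* they were *BMPER* (r = 0.96), *PGRMC2* (0.94) and *ASAP2* (0.93). The libraries fall into a growing and a senescent cluster, so that an r of this kind mostly says that both genes separate the clusters, and it is given as a description.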

How the data were processed

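RNA from 24 cultures of IMR90 ER:HRAS(G12V) cells, 6 per group, was made into TruSeq Stranded mRNA libraries. The authors aligned reads with STAR 2.5.0b to hg19, removed reads of mapping quality under 20 and adapters with cutadapt 1.10.0, and deposited raw counts per Entrez gene made with Rsubread. The version of Rsubread, its gene annotation and its strand setting are not given in the sources used here.

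Symbols were matched by Entrez identifier for 23696 of 25702 identifiers. Counts were filtered with filterByExpr by group (13356 genes), scaled by TMM and fitted with edgeR 4.0.16 (R 4.3.3) as group means over all 24 samples, and 6 contrasts were tested by quasi-likelihood with Benjamini-Hochberg adjustment over all genes. Standard errors are the absolute log2 fold change over the root of F, and intervals span 1.96 of them. CPM use TMM library sizes, and log2 CPM a prior count of 2. Levels per kb use canonical transcripts of GENCODE lifted to GRCh37. Scripts were tested on simulated counts. All 60 within-group pairs of libraries differed by more than sampling noise (chi-square per degree of freedom 2.77 or more), so none was treated as a duplicate.

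The 10 genes, the pathway list and the alternatives were chosen with earlier results of these data known. Named genes were all 10 members, up to 4 called genes of the pathway list in each direction, 3 genes most like each of 3 members, *HMGA1* and rows sharing reads. Alternatives were DESeq2 1.42.0, RLE scaling, 2 other filters, a replicate block, the samples of the contrast only, an FDR of 0.05, voom with sample quality weights (limma 3.58.1), and fits without the 2 libraries that stood apart or without each replicate number.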

Additional observations from a re-analysis of the deposited data

Results flagged for a closer look

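Dixon's ratio, the gap of the most extreme library to its neighbour over the range of its group, was computed for 9 genes in 4 groups of 6 libraries, and 7 of the 36 values passed Dixon's critical value for 6 libraries, where chance gives about 1 in 20, or 1.8. The libraries that stood apart on the first principal component account for 4 of them. RIS replicate 2 was the highest of its group for *IGF1R*, at 58.2 CPM with a ratio of 0.836, and for *IGFBP6*, at 72.5 CPM with a ratio of 0.831. Growing replicate 4 was the lowest of its group for *IGFBP6*, at 21.1 CPM with a ratio of 0.629, and for *IGFBP7*, at 244 CPM with a ratio of 0.698. These ratios are on the CPM scale. On the log2 CPM scale growing replicate 4 also passed the critical value for *IGF1R* (0.791), *IGFBP3* (0.736) and *IGFBP5* (0.679).

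The other 3 lay among the RIS+shHMGA1 libraries. *IGF2R* was highest in replicate 5, at 244 CPM with a ratio of 0.627, which fell to 0.57 on the log2 CPM scale, under the critical value. *IGFBP7* was highest in replicate 6, at 420 CPM with a ratio of 0.709. *IGFBP2* was highest in replicate 1, at 1.02 CPM with a ratio of 0.881, at a depth of few counts.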

How the results depend on the processing

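Of 760 log2 fold changes of members under the alternatives, 669 kept their direction and side of the threshold. A further 59 passed it only under the alternative, and 30 turned sign. The threshold was lost by 2 (IGF2 in RIS+shHMGA1 against growing, −1.09 without replicate 1 and without replicate 6). The causes were not tested. The FDR of 0.05 reuses the fold changes of the main fit, so under it none could turn sign or lose a call. The counts of called members stayed within 1.5 times in RIS+shHMGA1 against shHMGA1 (4 to 6), RIS+shHMGA1 against growing (5 to 6) and the interaction (0). In RIS against growing the 0 called members became 3 by DESeq2, 3 at an FDR of 0.05, 6 by voom with sample weights, 6 without growing replicate 4 and RIS replicate 2, and 0 to 4 without 1 replicate number, with 4 without replicate 2 and 3 without replicate 4. In shHMGA1 against growing 0 became 2 by voom and 2 without those 2 libraries. In RIS+shHMGA1 against RIS 0 became 2 by DESeq2, 2 at an FDR of 0.05, 1 by voom, 2 without the 2 libraries and 0 to 2 without 1 replicate number. DESeq2 called 829 of all genes in RIS against growing, 99 in shHMGA1 against growing and 1573 in RIS+shHMGA1 against RIS. Without the 2 libraries the shares of all genes called in these comparisons were 39.7%, 2.59% and 12.5%. Shares of all genes under the other alternatives are not given. Counts of members, or of pathway genes below, under any alternative are therefore not read as a result about these genes.

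Pathway genes called in RIS against growing were 0, then 3 by DESeq2, 4 at an FDR of 0.05, 14 by voom, 11 without the 2 libraries and 0 to 5 without 1 replicate number. In RIS+shHMGA1 against shHMGA1 12 became 6 to 11 without 1 replicate number, with 6 without replicate 1 and 7 without replicate 3 or 6. In shHMGA1 against growing 0 became 2 by DESeq2, 2 at an FDR of 0.05, 3 by voom, 3 without the 2 libraries and 0 to 1 without 1 replicate number. In RIS+shHMGA1 against RIS 2 became 4 by DESeq2, 1 by RLE, 0 without a filter, 7 at an FDR of 0.05, 4 without the 2 libraries and 0 to 4 without 1 replicate number, with 0 for each number but replicate 4.

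Other than the interaction of *IGF1R*, −0.89 with all libraries, values that turned sign lay between −0.44 and 0.11 with all libraries. By voom they were 0.02 for *IGF2*, 0.14 for *IGFBP6* and 0.11 for *IGFBP7* in RIS+shHMGA1 against RIS, −0.25 for *IGF2R* in RIS against growing, and 0.19 for *IGF1R* and 0.14 for *IGF2R* in the interaction. Without the 2 libraries they were −0.09 for *IGF2R* in RIS against growing, 0.13 for *IGFBP6* and 0.03 for *IGFBP7* in RIS+shHMGA1 against RIS, and 0.08 for *IGF1R* and 0.08 for *IGF2R* in the interaction. DESeq2 and RLE both gave 0.02 for *IGF2R* in RIS+shHMGA1 against shHMGA1, and leaving out 1 replicate number gave −0.16 to 0.05 there. Leaving out 1 replicate number also gave −0.11 to 0.32 for *IGF2* in the interaction (0.47 without the 2 libraries), and −1.11 to −0.13 for *IGF1R* and −0.26 to −0.03 for *IGF2R* in the interaction (0.08 for each without the 2 libraries), −0.09 to 0.29 for *IGF2R* in RIS against growing, −0.20 to 0.01 for *IGFBP4* in RIS+shHMGA1 against shHMGA1, and −0.47 to 0.19 for *IGFBP6* and −0.38 to 0.04 for *IGFBP7* in RIS+shHMGA1 against RIS.

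The replicate numbers were not taken to pair the libraries, and the main fit has no term for them. Same-numbered libraries deviated together (r over 0.1) in 3 to 5 of 6 pairs per comparison, with r from −0.594 to 0.828. The group means behind these r include the 2 libraries wherever growing or RIS cells enter. In shHMGA1 against growing r ran from 0.0747 to 0.481. In RIS+shHMGA1 against shHMGA1, which contains neither of the 2 libraries, it ran from −0.0233 to 0.326. Whether a replicate number stands for a shared batch was not tested. With the replicate number as a block, 1 member and 4 pathway genes were called in RIS+shHMGA1 against RIS, against 0 and 2 without it, and no other count moved by over 1.5 times. The block together with leaving out the 2 libraries, added after seeing the data, called 6 members and 11 pathway genes in RIS against growing, 2 and 3 in shHMGA1 against growing, and 2 and 4 in RIS+shHMGA1 against RIS. In that fit *IGF2R* was −0.04 in RIS against growing, *IGFBP6* 0.13 and *IGFBP7* 0.05 in RIS+shHMGA1 against RIS, and *IGF1R* 0.03 and *IGF2R* 0.03 in the interaction. Counts of 2 to 19 limit what can be said of *IGFBP2*.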
